A study of Mus musculus with 6 samples.

Results

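The liver X receptors (LXR), their sterol efflux targets and the related lipid genes Nr1h3, Nr1h2, Abca1, Abcg1, Mylip, Apoe, Lpl and Lpcat3 were read by symbol from a deposited matrix of gene counts, and 8 of its 14992 genes are described here. RNA was sequenced from 6 mouse bone marrow samples of transplant recipients, 3 treated with an inhibitor of PI3K alpha and beta and 3 treated with vehicle. In every library of both groups the marrow stems from a transplant of Dnmt3a knockout whole marrow, called leukaemic in the treatment protocol, into irradiated C57/BL6 mice, and treatment lasted 21 days, with the inhibitor at 75 mg/kg. The libraries are numbered 1, 3 and 5 for the inhibitor and 1, 2 and 3 for vehicle. Marrow of mice without the knockout was not analysed here, the age of the mice and the promoter or Cre behind the knockout are not given in the sources used here, and irradiated recipients may keep cells of their own. Nothing in the labels says in so many words that each library is a separate animal, so p-values measure only the spread between these libraries, which may be technical. Total counts were 28198638 to 35299105 per inhibitor library and 33762431 to 59384880 per vehicle library.

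LXR are nuclear receptors that bind oxysterols, which build up when a cell holds excess cholesterol. Paired with a retinoid X receptor (RXR) they bind a repeat of the half-site AGGTCA with 4 bases between the copies, called DR4, and switch on genes that export cholesterol to lipoproteins, curb its uptake and remodel membrane lipids. Macrophages, which take up whole dying cells and their cholesterol, are the best studied site of this programme in blood-forming tissue. The receptor LXR alpha (Nr1h3) is enriched in macrophages, liver and fat, whereas LXR beta (Nr1h2) is made in most tissues.

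Inhibitor-treated marrow had lower Nr1h3 and higher Mylip than vehicle marrow, and these were the 2 genes of the 8 that passed the test over all genes. Abca1, Apoe and Lpl were also lower in every inhibitor library than in every vehicle library, by 3.10-fold to 4.48-fold on average, but did not pass. Of all tested genes 16.2% were lower in that way. Vehicle 1 was the highest library for Abca1, Apoe and Lpl, and without it their log2 fold changes were -1.29, -1.12 and -0.97. Nr1h2, Abcg1 and Lpcat3 overlapped between the groups. The edgeR quasi-likelihood test with Benjamini-Hochberg adjustment called 1 of the 8 genes higher and 1 lower at an adjusted p under 0.05, beside 0.633% of 12806 tested genes called higher and 1.19% called lower. All 8 passed the filter on low counts. They were chosen by their inhibitor and vehicle counts in these same libraries, with earlier results known, so their fold changes and p-values describe the comparison and support nothing beyond it.

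Promoter sequence is shown for Abca1, Nr1h3 and Mylip, because Abca1 and Nr1h3 were lower and Mylip higher with the inhibitor, and because the DR4 element is the known contact of LXR with DNA. The DR4 pattern was chosen after the Abca1 sequence had been seen, so the match in Abca1 is a description and supports nothing beyond it. The sequences are from RefSeq (GRCm38.p6, which is the mm10 build of the deposited counts), end at the base before the annotated start of transcription and are written 5′ to 3′ on the strand of the gene. Capitals mark a DR4 match (the letters GGTNA, any 5 bases, then GGTNA again, on either strand) and the TATA motif TATAAA.
Abca1: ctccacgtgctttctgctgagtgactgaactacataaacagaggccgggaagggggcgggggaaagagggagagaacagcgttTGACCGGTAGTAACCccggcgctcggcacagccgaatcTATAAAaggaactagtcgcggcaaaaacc
Nr1h3: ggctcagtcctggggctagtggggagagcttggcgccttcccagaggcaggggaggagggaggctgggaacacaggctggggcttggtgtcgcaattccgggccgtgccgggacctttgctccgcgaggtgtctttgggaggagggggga
Mylip: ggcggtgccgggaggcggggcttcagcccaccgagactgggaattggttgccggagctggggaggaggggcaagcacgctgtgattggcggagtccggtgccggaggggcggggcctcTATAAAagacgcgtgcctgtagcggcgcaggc
The Abca1 stretch is chr4:53159896-53160045 (minus strand), that of Nr1h3 chr2:91195117-91195266 (minus strand, the first of 2 annotated starts) and that of Mylip chr13:45389592-45389741 (plus strand). Both Nr1h3 starts lie inside the gene as annotated by GENCODE, which begins further upstream, at 91202834. In the 250 bases before the start, Abca1 held a DR4 match at positions -67 to -53, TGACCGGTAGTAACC as read on the strand of the gene, counted back from -1 at the base before the start. DR4 matches were in 0.621% of 32851 annotated promoters of that length. Promoter sequence was matched for 6 of the 8 genes, Nr1h3, Nr1h2, Abca1, Mylip, Apoe and Lpcat3, and Abca1 alone of the 6 held a DR4 match. The stricter pattern of AGGTCA, any 4 bases and AGGTCA again was in 5 of the 32851 promoters and in none of these 6 genes. Abca1 also held TATAAA at -29 to -24 and the E-box CACGTG at -147 to -142, and Mylip held TATAAA at -32 to -27, motifs present in 12.4% (TATAAA) and 6.02% (CACGTG) of promoters on either strand. A match is only a run of letters, and a missing match says nothing about LXR elements elsewhere, such as introns and distant enhancers.

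Nr1h3 (ENSMUSG00000002108, chromosome 2, 91184061 to 91202834, GRCm38) stood at 3.48, 3.01 and 2.86 CPM (read counts set to a common library total with TMM scaling) in inhibitor libraries 1, 3 and 5, against 16.8, 10.7 and 12.2 CPM in vehicle libraries 1, 2 and 3. The groups did not overlap, and the highest inhibitor library had 3.48 CPM where the lowest vehicle library had 10.7. These levels rest on 107, 81 and 101 reads in the inhibitor libraries and on 588, 386 and 768 reads in the vehicle libraries. Nr1h3 fell by 2.08 ± 0.23 on the log2 scale (SE, n = 3 per group; adjusted p = 0.024 by edgeR), a 4.23-fold lower level. The transcript gene Gm13783 overlaps Nr1h3 by 6873 bases on the same strand and is not among the genes analysed here, so reads from it inside Nr1h3 exons cannot be told apart. Nr1h3 was not called without any one of vehicle 3, inhibitor 1, inhibitor 3 or inhibitor 5, where its adjusted p ran from 0.0752 to 0.137 at log2 fold changes of -2.16 to -2.02, and no gene of the whole table was called in those 4 edgeR fits, where 1832 to 2398 genes had an unadjusted p under 0.05. No call by edgeR given here, of these genes or of others, was therefore made in those 4 fits.

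Nr1h2 (chromosome 7, 44549616 to 44553951) stood at 87.3, 81.35 and 72.2 CPM in inhibitor libraries 1, 3 and 5 and at 81.6, 66.2 and 78.25 CPM in vehicle libraries 1, 2 and 3. The groups overlapped, with a log2 fold change of 0.09 ± 0.13 (SE; adjusted p = 0.712 by edgeR). A processed pseudogene of Nr1h2 lies on chromosome 9 from 74364586 to 74365063, and the sources used here do not say how reads that fit both were counted. Set per length of the gene, Nr1h3 averaged 1.53 ± 0.16 CPM per kb in inhibitor libraries and 6.49 ± 1.56 in vehicle libraries, and Nr1h2 averaged 39.7 ± 3.75 in inhibitor libraries and 37.3 ± 4.01 in vehicle libraries (SD, n = 3). Within a library the Nr1h2 level per length was thus 25.1 to 27.0 times that of Nr1h3 with the inhibitor and 4.90 to 6.44 times with vehicle. The log2 ratio of Nr1h3 to Nr1h2 averaged -4.69 ± 0.06 in inhibitor and -2.54 ± 0.22 in vehicle libraries (SD, n = 3), and a ratio within a library does not depend on how libraries are scaled.

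**Figure D1:**
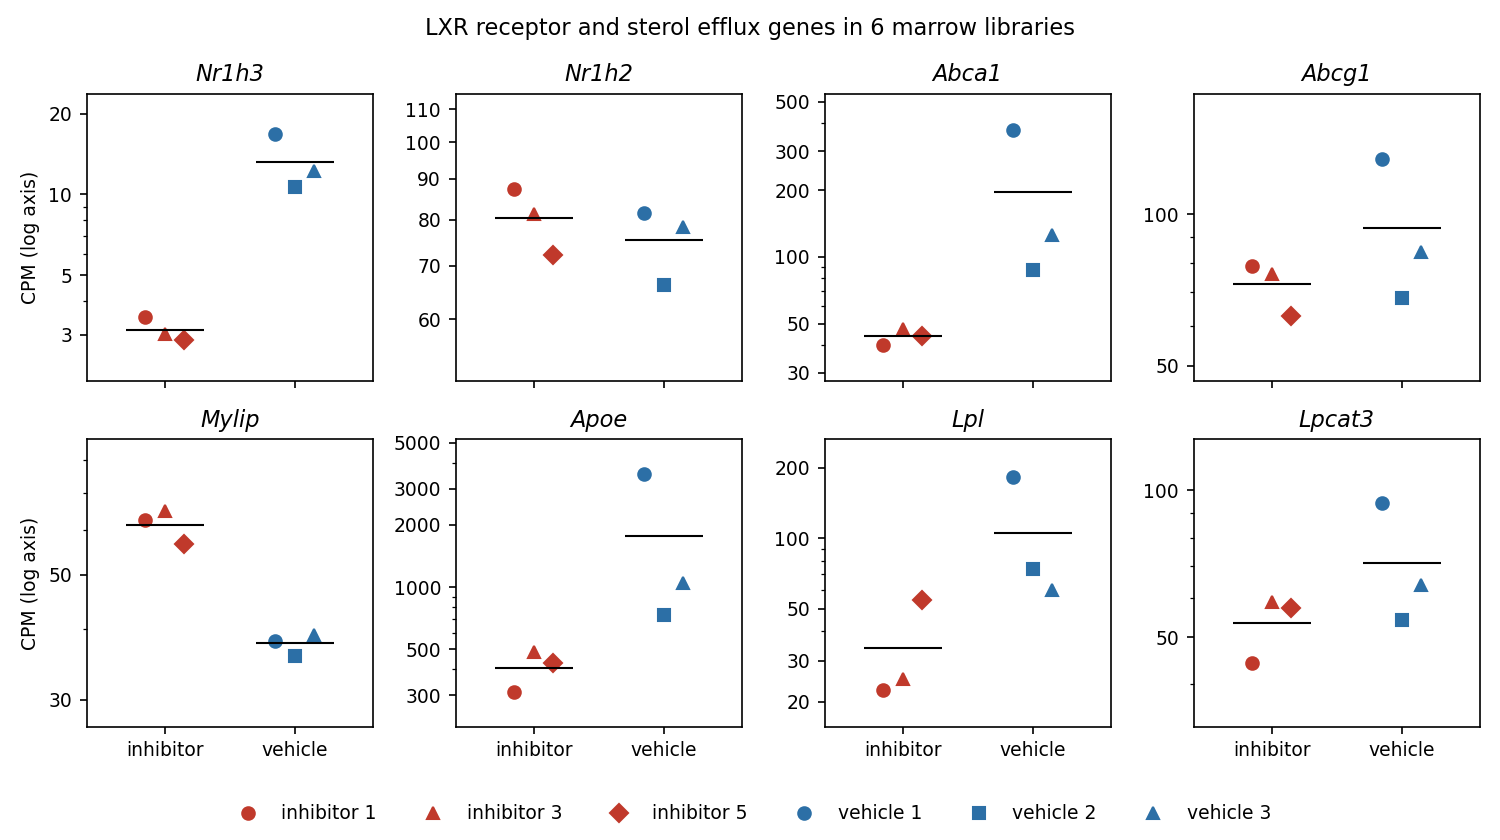
Level of each gene in CPM (log axis, a separate range per gene) in the 3 inhibitor libraries (red, left) and the 3 vehicle libraries (blue, right); black lines are group means. Nr1h3, Abca1, Apoe and Lpl lie lower in every inhibitor library than in every vehicle library, Mylip lies higher, and vehicle 1 is the highest library for Abca1, Apoe and Lpl.

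Abca1 and Abcg1 encode the transporters that move cholesterol out of the cell, Abca1 to lipid-poor apolipoproteins and Abcg1 to formed high-density particles. Abca1 (chromosome 4, 53030787 to 53159895), whose promoter holds the DR4 match shown above, stood at 39.95, 47.4 and 44.0 CPM in inhibitor libraries 1, 3 and 5, against 375, 87.5 and 126 CPM in vehicle libraries 1, 2 and 3. Inhibitor libraries lay close together and vehicle 1 lay far above the rest, at 3.52 times the mean of vehicles 2 and 3. The log2 fold change was -2.16 ± 0.52 (SE; adjusted p = 0.0748 by edgeR). Without vehicle 1 it was -1.29 ± 0.16, smaller in size, and the gene then passed with an adjusted p of 0.00669 by edgeR.

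Abcg1 (chromosome 17, 31057675 to 31117988) stood at 78.9, 76.25 and 62.8 CPM in inhibitor libraries 1, 3 and 5 and at 129, 68.2 and 84.2 CPM in vehicle libraries 1, 2 and 3. Vehicle 2 lay below inhibitors 1 and 3. Its log2 fold change was -0.37 ± 0.24 (SE; adjusted p = 0.403 by edgeR), and -0.07 ± 0.14 without vehicle 1 (adjusted p = 0.796). Per length, Abca1 averaged 4.27 ± 0.36 CPM per kb in inhibitor and 19.1 ± 15.2 in vehicle libraries, and Abcg1 averaged 12.5 ± 1.48 in inhibitor and 16.1 ± 5.40 in vehicle libraries (SD, n = 3). The Abca1 level per length was 0.287, 0.352 and 0.397 times that of Abcg1 in inhibitor libraries 1, 3 and 5, against 1.65, 0.727 and 0.848 times in vehicle libraries 1, 2 and 3. Abca1 was thus below Abcg1 in every inhibitor library and in vehicles 2 and 3, and above it in vehicle 1. The mean log2 ratio was lower by 1.55 with the inhibitor, and by 1.20 without vehicle 1, and was not tested.

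**Figure D2:**
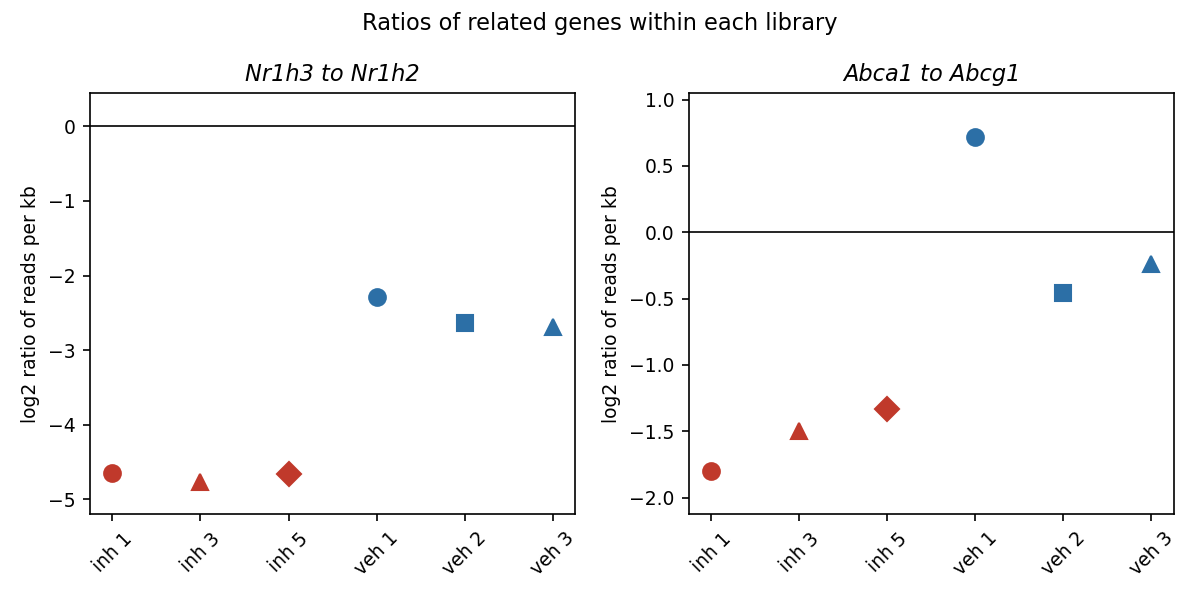
Log2 ratio of reads per kb of Nr1h3 to Nr1h2 (left panel) and of Abca1 to Abcg1 (right panel) in each library; 0 means equal levels. Inhibitor libraries (red) lie between -4.76 and -4.65 for the receptors and between -1.80 and -1.33 for the transporters, below every vehicle library (blue) in both panels.

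Apoe and Lpl act outside the cell. Apoe encodes apolipoprotein E, the protein that macrophages load with exported cholesterol, and Lpl encodes lipoprotein lipase, which releases fatty acids from circulating triglyceride. Apoe (chromosome 7, 19696109 to 19699188) stood at 309, 486 and 429 CPM in inhibitor libraries 1, 3 and 5, against 3541, 729 and 1044 CPM in vehicle libraries 1, 2 and 3. It was the most abundant of the 8 genes per length in both groups, at 257 ± 56.8 CPM per kb in inhibitor and 1117 ± 971 in vehicle libraries (SD, n = 3), with vehicle 1 at 3.99 times the mean of vehicles 2 and 3. The log2 fold change was -2.12 ± 0.58 (SE; adjusted p = 0.0976 by edgeR), and without vehicle 1 it was -1.12 ± 0.23 (adjusted p = 0.0283).

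Lpl (chromosome 8, 68880491 to 68907448) stood at 22.6, 25.2 and 54.3 CPM in inhibitor libraries 1, 3 and 5, against 183, 73.6 and 59.9 CPM in vehicle libraries 1, 2 and 3. Inhibitor 5 lay apart from the other inhibitor libraries and only just below vehicle 3. Its log2 fold change was -1.63 ± 0.51 (SE; adjusted p = 0.127 by edgeR), with -0.97 ± 0.35 without vehicle 1 (adjusted p = 0.125) and -2.13 without inhibitor 5 (adjusted p = 0.164). Per length Lpl averaged 8.40 ± 4.35 CPM per kb in inhibitor and 26.1 ± 16.7 in vehicle libraries (SD, n = 3).

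Mylip and Lpcat3 act inside the cell. Mylip encodes a ubiquitin ligase, also called IDOL, that curbs lipoprotein uptake and is a classical LXR target. Mylip (chromosome 13, 45389742 to 45412022) stood at 62.5, 65.1 and 56.65 CPM in inhibitor libraries 1, 3 and 5, against 38.2, 35.9 and 39.1 CPM in vehicle libraries 1, 2 and 3. The groups did not overlap, and vehicle 1 lay between the other vehicle libraries. Mylip rose by 0.70 ± 0.11 on the log2 scale (SE; adjusted p = 0.0403 by edgeR), a 1.63-fold higher level, opposite in direction to Nr1h3. Per length it averaged 20.6 ± 1.45 CPM per kb in inhibitor and 12.7 ± 0.55 in vehicle libraries (SD, n = 3). Over the fits that left out 1 library its log2 fold change ran from 0.66 to 0.76, and it passed only without vehicle 1 (adjusted p = 0.0145 by edgeR). Without vehicle 2, the one other fit of that kind that called any gene, its adjusted p was 0.0716, and over the other 4 it ran from 0.104 to 0.177.

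Lpcat3 encodes an acyltransferase that puts polyunsaturated fatty acids into membrane phospholipids. Lpcat3 (chromosome 6, 124663027 to 124704418) stood at 44.2, 59.1 and 57.4 CPM in inhibitor libraries 1, 3 and 5 and at 94.2, 54.25 and 63.9 CPM in vehicle libraries 1, 2 and 3. Vehicle 2 lay below inhibitors 3 and 5. Its fitted log2 change was -0.40 ± 0.22 (SE; adjusted p = 0.335 by edgeR), and -0.14 ± 0.15 without vehicle 1 (adjusted p = 0.592). Per length Lpcat3 averaged 21.4 ± 3.26 CPM per kb in inhibitor and 28.3 ± 8.33 in vehicle libraries (SD, n = 3). The gene Emg1 overlaps its end by 334 bases on the opposite strand, and the library chemistry, as far as it is described, does not mark strand, so reads of the 2 genes there cannot be told apart.

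In all, 4 of the 8 genes were lower and 1 higher in every inhibitor library than in every vehicle library, beside 16.2% of all tested genes lower and 14.4% higher in that way. The median log2 fold change of the 8 was -1.02 beside 0.001 for all tested genes, and -0.56 beside 0.02 without vehicle 1. Vehicle 1 was the highest library for 6 of the 8, the exceptions being Nr1h2 and Mylip. DESeq2 called 4 of the 8 lower and 1 higher, beside 7.24% of genes lower and 4.91% higher, and limma voom likewise 4 lower and 1 higher, beside 11.6% and 10.7%. Without vehicle 1, edgeR called 3 lower and 1 higher, beside 4.89% and 3.1%, and at an adjusted p under 0.10 in all 6 libraries 3 were lower, beside 4.95%. The authors' deposited table gives an adjusted p under 0.05 for 5 of the 8, beside 4.24% of its genes higher and 6.57% lower. In the authors' deposited table these are Nr1h3 (8.76e-14), Mylip (2.63e-05), Abca1 (0.000189), Apoe (0.0011) and Lpl (0.00964). Log2 fold changes in the authors' deposited table were -2.08 for Nr1h3, 0.70 for Mylip, -2.15 for Abca1, -2.10 for Apoe and -1.62 for Lpl.

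**Figure D3:**
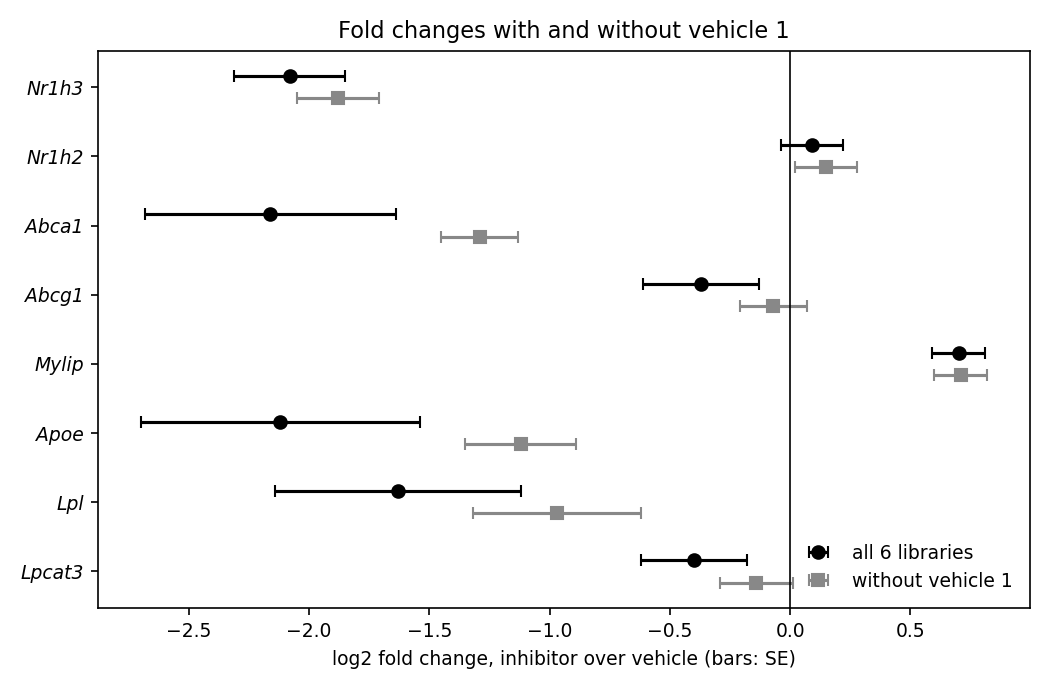
Log2 fold change of each gene, inhibitor over vehicle, with its standard error, fitted by edgeR to all 6 libraries (black circles) and without vehicle 1 (grey squares). Nr1h3 and Mylip kept their size (-2.08 and -1.88 for Nr1h3, 0.70 and 0.71 for Mylip), while Abca1, Apoe and Lpl came closer to 0 without vehicle 1, at -1.29, -1.12 and -0.97.

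In these bulk samples fewer cells of a type and less RNA per cell cannot be told apart, and macrophage genes moved with the groups. Of 20 macrophage marker genes 7 fell and 0 rose (edgeR adjusted p under 0.05), all 20 log2 fold changes lay below 0 around a median of -2.68, and 0 of the 20 had no reads. Without vehicle 1 the median was -1.75. Summed over the list the level was 1139 to 1473 CPM in inhibitor and 3111 to 11059 CPM in vehicle libraries, and the mean log2(CPM + 1) of the list was 4.85, 5.36 and 5.12 in inhibitor libraries 1, 3 and 5 and 8.43, 6.88 and 7.05 in vehicle libraries 1, 2 and 3. Maf, a transcription factor of macrophages, fell by 1.31 ± 0.12 on the log2 scale (SE; adjusted p = 0.0194 by edgeR). The part of macrophage genes in the values of Nr1h3, Abca1, Apoe and Lpl was not tested.

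Set against the mean of the macrophage genes in the same library, as a difference of log2(CPM + 1), Nr1h3 stood at -2.68, -3.35 and -3.17 in inhibitor libraries 1, 3 and 5 and at -4.28, -3.34 and -3.32 in vehicle libraries 1, 2 and 3. The groups overlapped, with a mean 0.58 higher with the inhibitor, and 0.26 higher without vehicle 1. Abca1 stood at 0.51, 0.24 and 0.37 in inhibitor libraries 1, 3 and 5 and at 0.13, -0.42 and -0.06 in vehicle libraries 1, 2 and 3, a mean 0.49 higher with the inhibitor. Apoe was likewise 0.55 higher relative to the list. Lpl was 0.81 higher, or 0.43 higher without inhibitor 5, and its groups barely parted, with inhibitor 3 at -0.65 and vehicle 2 at -0.66. For Nr1h2, Abcg1, Mylip and Lpcat3 the difference was larger, from 1.98 for Lpcat3 to 3.03 for Mylip. The list mean itself was lower with the inhibitor, so a gene with no change of its own stands higher by this measure. Nr1h2, at a log2 fold change of 0.09, stood 2.44 higher. The share of all tested genes that part in this way is not given here. With Cd5l and Mertk taken off the macrophage list and Spic, also counted among LXR targets, still on it, the values were 0.41 for Nr1h3, 0.32 for Abca1, 0.38 for Apoe and 0.64 for Lpl.

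**Figure D4:**
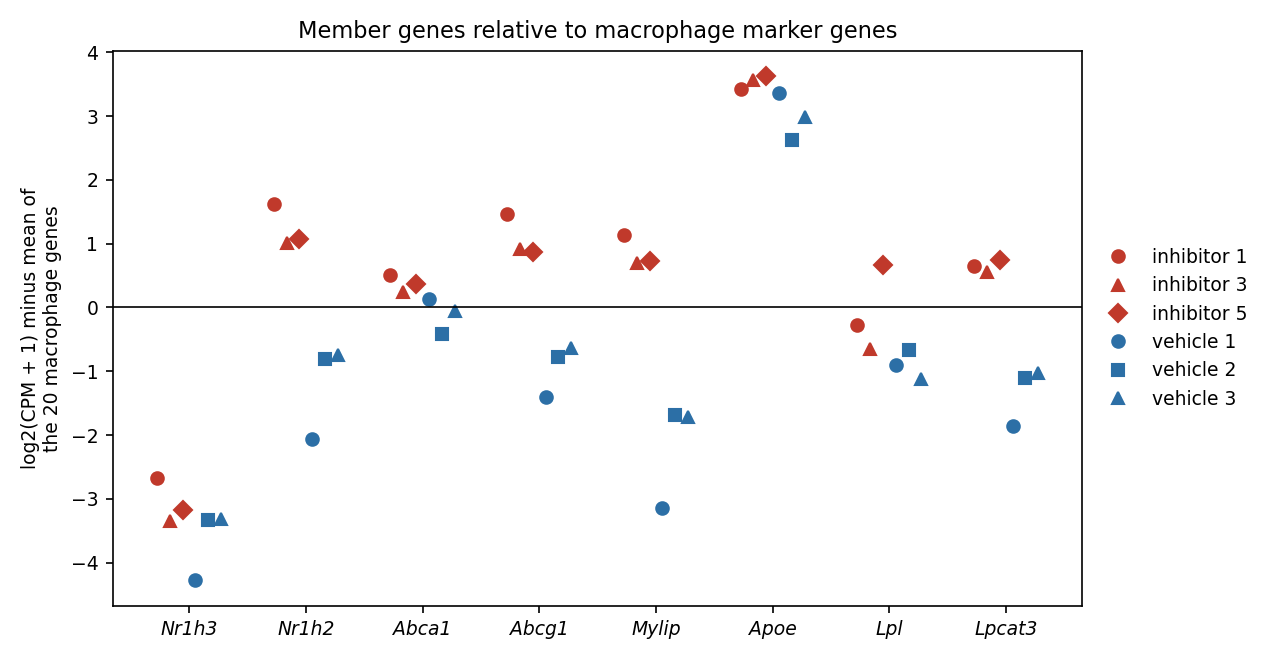
Log2(CPM + 1) of each gene minus the mean log2(CPM + 1) of 20 macrophage genes in the same library; red symbols are inhibitor and blue symbols vehicle libraries. The groups overlap for Nr1h3, differ by 0.49 to 0.81 for Abca1, Apoe and Lpl (0.43 for Lpl without inhibitor 5), and lie 1.98 to 3.03 apart for Nr1h2, Abcg1, Mylip and Lpcat3, with the inhibitor higher in each of these 7. The list mean itself is lower with the inhibitor, so a gene with no change of its own lies higher here.

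Other marker lists moved as well. Of 12 monocyte genes 3 fell, with a summed level of 2391 to 3243 CPM in inhibitor and 3751 to 4394 CPM in vehicle libraries, and Fcgr1, a high-affinity Fc receptor of these cells, fell by 1.87 ± 0.16 on the log2 scale. Neutrophil genes summed to 107327 to 130954 CPM in inhibitor and 42972 to 69719 CPM in vehicle libraries, with 2 of 14 called higher. Of 11 B lymphoid genes 3 rose, and their summed level was 196 to 583 CPM in inhibitor and 60.6 to 135 CPM in vehicle libraries. None of 10 erythroid and 6 megakaryocyte genes was called by edgeR, and 0 of either list had an unadjusted p under 0.05. In the list of stroma and endothelium 0 of 13 tested genes were called by edgeR. An unadjusted p under 0.05 was met by 0 on the higher and 6 on the lower side, beside 9.68% and 11.9% of all tested genes. Summed levels of that list were 251 to 434 CPM in inhibitor and 354 to 925 CPM in vehicle libraries. Lpl is also made by fat cells, and of 7 tested fat cell markers 1 was called. It was the complement factor gene Cfd, which rose with the inhibitor. Cfd stood at 2.08, 1.12 and 4.30 CPM in inhibitor libraries 1, 3 and 5. Its level was only 0.171, 0.0276 and 0.127 CPM in vehicle libraries 1, 2 and 3. An unadjusted p under 0.05 by edgeR was met by 2 on the higher and 0 on the lower side, with a median log2 fold change of 0.63. Summed levels of the fat cell list, 172 to 200.2 CPM in inhibitor and 134 to 202 CPM in vehicle libraries, overlapped.

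The RXR partners and coregulators of LXR gave no called gene. Of 15 tested, 0 passed by edgeR. An unadjusted p under 0.05 was met by 1 on the higher and 3 on the lower side, beside 9.68% and 11.9% of all tested genes. The median log2 fold change was 0.01, or -0.15 without vehicle 1. Rxra, the main RXR of myeloid cells, had 25.5, 33.6 and 22.4 CPM in inhibitor libraries 1, 3 and 5, against 112, 43.2 and 59.7 CPM in vehicle libraries 1, 2 and 3. Its log2 fold change of -1.40 ± 0.35 did not pass (SE; adjusted p = 0.0813 by edgeR), and was -0.93 without vehicle 1. Rxrb had a value of 0.43 ± 0.12 in the opposite direction (adjusted p = 0.108). For the corepressor gene Nrip1 the value was -1.05 ± 0.36, and -0.50 without vehicle 1. DESeq2, as an alternative, called 3 of these genes lower and 0 higher, beside 7.24% and 4.91% of all tested genes.

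Among other genes tied to LXR in macrophages, 4 of 13 tested fell and 0 rose (edgeR adjusted p under 0.05), with a median of -0.99. Cd5l, a secreted protein that keeps macrophages alive, had 5.01, 10.98 and 4.70 CPM in inhibitor libraries 1, 3 and 5, against 653, 148 and 163 CPM in vehicle libraries 1, 2 and 3. Mertk, the receptor for apoptotic cells, fell by 2.97 ± 0.38 on the log2 scale and Spic, a transcription factor of macrophages that recycle iron, fell by 2.22 ± 0.26. These 3 are also on the macrophage list. Arl4c, a small GTPase that aids cholesterol transport, is not on it and fell by 0.99 ± 0.18 (SE; adjusted p = 0.0453 by edgeR), with 28.6, 25.6 and 20.95 CPM in inhibitor libraries 1, 3 and 5 against 59.35, 45.1 and 44.7 CPM in vehicle libraries 1, 2 and 3.

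Lipogenic targets shared by LXR and SREBP gave 1 call in 12. It was Thrsp, which rose at levels under 1 CPM, with 0.651, 0.595 and 0.680 CPM in inhibitor libraries 1, 3 and 5 and 0.114, 0.0552 and 0.0318 CPM in vehicle libraries 1, 2 and 3. Scd1, the stearoyl-CoA desaturase, had 7.71, 13.4 and 26.4 CPM in inhibitor libraries 1, 3 and 5 and 165, 16.5 and 31.3 CPM in vehicle libraries 1, 2 and 3. Its log2 fold change of -2.16 ± 0.87 did not pass (SE; adjusted p = 0.211 by edgeR) and was -0.59 without vehicle 1. The median of this list was -0.30.

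Genes of sterol uptake, storage and oxysterol making included 4 that fell of 16 tested and 0 that rose (edgeR adjusted p under 0.05; median -0.40). Among them the scavenger receptor gene Msr1 fell by 2.94 ± 0.48 on the log2 scale (SE), Lrp1, a large receptor for Apoe-bearing particles, fell by 1.94 ± 0.33, and Lipa, the lysosomal lipase that frees cholesterol from its esters, fell by 0.95 ± 0.15.

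In the sterol synthesis list, which answers to SREBP and is shut down when sterol is plentiful, 0 of 23 tested genes were called by edgeR, and 12 had an unadjusted p under 0.05, all of them lower, beside 9.68% of all tested genes higher and 11.9% lower at that level. Its median was -0.38, and 20 of the 23 values were negative. Sqle, squalene epoxidase, had a log2 fold change of -1.21 ± 0.26 (SE; adjusted p = 0.0619 by edgeR) and Insig1 one of -0.61 ± 0.17. DESeq2 called 6 of the list lower and 0 higher, beside 7.24% and 4.91% of all tested genes.

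Relatives of the 8 genes did not follow one pattern. Of 12 other ABCA and ABCG transporters 1 was called. Abcg3 fell by 1.31 ± 0.23 on the log2 scale (SE; adjusted p = 0.0453 by edgeR), at 6.12, 6.10 and 6.54 CPM in inhibitor libraries 1, 3 and 5 against 10.7, 18.2 and 17.6 CPM in vehicle libraries 1, 2 and 3. Of 7 relatives of Lpcat3 none was called by edgeR, while an unadjusted p under 0.05 was met by 1 on the higher and 1 on the lower side, and Lpcat4 had a value of 0.53 ± 0.17 (adjusted p = 0.133). Of 7 partners of lipoprotein lipase none was called either, with 0 on the higher and 1 on the lower side at that unadjusted p, the inhibitor protein gene Angptl4 at -1.28 ± 0.33 (adjusted p = 0.0888), or -0.84 without vehicle 1. Of 11 related nuclear receptors none was called by edgeR, and their median was -0.64. An unadjusted p under 0.05 was met by 0 of them on the higher and 7 on the lower side. Over all tested genes, 9.68% were higher and 11.9% lower at that unadjusted p, beside each of these lists. Pparg, which in macrophages raises Nr1h3, stood at -0.92 ± 0.26 (adjusted p = 0.105). DESeq2 called 2 of the transporters lower and 1 higher, 1 lipase partner lower, 5 nuclear receptors lower and none of the Lpcat3 relatives. Of all tested genes it called 7.24% lower and 4.91% higher. Over the 9 lists, 115 genes were tested, and edgeR called 1 higher and 9 lower, beside 0.633% and 1.19% of all tested genes.

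**Figure D5:**
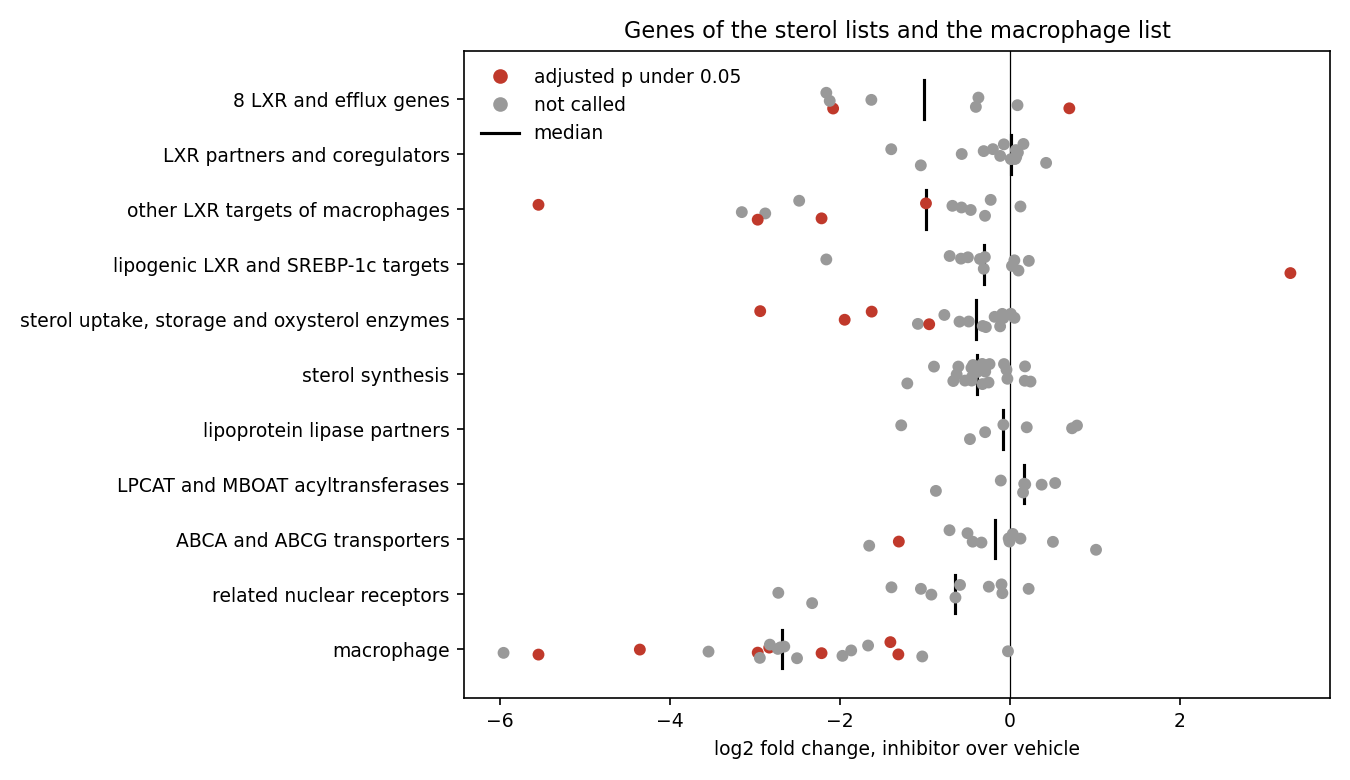
Log2 fold change, inhibitor over vehicle, of every tested gene in the 8 LXR and efflux genes, 9 related lists and the macrophage list; red points passed at an adjusted p under 0.05 by edgeR, grey points did not, and black bars are medians. The macrophage list has the lowest median (-2.68), and the medians of the related lists run from -0.99 to 0.17.

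Genes whose values ran most like those of 2 of the 8 were picked out of 9498 tested genes that averaged 5 CPM or more, by the root mean square difference of log2(CPM + 1) after centring each gene over the 6 libraries. Closest to Nr1h3 were Tmem51 (0.107), Adap2 (0.114), Shtn1 (0.137), the ATP-gated channel gene P2rx7 (0.162) and Fcgr1 (0.165). Among the 5 closest to Abca1 were Ecm1 (0.113), the amino acid transporter gene Slc7a8 (0.127), the MHC class II chain gene Cd74 (0.129) and the heme oxygenase gene Hmox1 (0.131). Among the 8 themselves, Apoe lay nearest to Abca1, at 0.144, while Nr1h3 was 0.468 and Abcg1 0.860 away from it.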

How the data were processed

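Per the labels' protocols, RNA of bone marrow cells was isolated on RNeasy Plus Micro columns, copied with SMART-Seq v4 and made into Nextera XT libraries. STAR alignment to mm10 and featureCounts counting are named, per the submitters' processing notes; versions, annotation and strand setting were not given in the sources used here. Deposited was 1 table by the authors, holding raw read counts for 14992 genes, with gene length in bases, and 14992 empty lines were dropped. The same deposited table holds the authors' fold (a ratio), log2 fold change, p-value and adjusted p-value, from a test that the sources used here do not name.

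Counts of 3 inhibitor and 3 vehicle libraries were tested with edgeR 4.0.16 (R 4.3.3; filterByExpr, TMM, quasi-likelihood F test, Benjamini-Hochberg over 12806 tested genes), tested on simulated data, where most of the largest changes were called and few of the smallest, so a gene not called here may still differ. The simulation held no library set apart from its group, as vehicle 1 is here, so its recovery need not hold for these libraries. SE is the log2 fold change over the square root of F. CPM uses TMM-scaled totals, and the biological coefficient of variation was 25.2%. Ratios of genes used reads per kb with a prior of 0.5 counts. Alternatives were DESeq2 1.42.0, limma 3.58.1 voom with sample weights, other scalings and filters, a replicate block and leaving out each library. Members and lists were chosen with earlier results of these data known. Named genes are the 8 members, up to 4 genes per list with the smallest p plus every called gene where 6 or fewer were called, and the 5 genes nearest to Nr1h3 and to Abca1. Loci are from GENCODE on GRCm38, and promoters from RefSeq. Some genes that this rule names are not reported here.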

Additional observations from a re-analysis of the deposited data

How the results depend on the processing

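Of the 8 LXR and efflux genes, 1 was called higher and 1 lower by edgeR. With DESeq2 and with limma voom 4 were called lower, at an adjusted p under 0.10 by edgeR 3 were lower, and with the replicate block 0 were higher and 0 lower. Leaving out each library gave 0 to 1 higher and 0 to 3 lower, with 3 lower without vehicle 1. Of the 115 tested genes on the 9 related lists, 1 was called higher and 9 lower, beside 0.633% and 1.19% of all tested genes. DESeq2 called 2 higher and 30 lower, beside 4.91% and 7.24% of all tested genes, and voom 6 higher and 44 lower, beside 10.7% and 11.6%. A filter of at least 5 CPM in 3 libraries left 0 higher, beside 0.917% of all tested genes. The block gave 0 higher and 2 lower, beside 0% and 0.0547%. Leaving out each library gave 0 to 1 higher and 0 to 23 lower. The 23 lower were without vehicle 1, beside 4.89% of all tested genes in that fit. The cause of these shifts was not tested. Over the whole table edgeR called 234 genes, DESeq2 1554, voom 2857, the block 7 (1438 at an unadjusted p under 0.05), and the fits without vehicle 1 and without vehicle 2 called 1034 and 91. Adjusted p-values over all these settings ran from 1.85e-13 to 0.137 for Nr1h3, 6.8e-06 to 0.374 for Mylip, 0.0002 to 0.222 for Abca1, 0.0011 to 0.265 for Apoe and 0.00944 to 0.347 for Lpl. No member's fold change changed direction under any setting. Only numbers 1 and 3 are shared by both groups, so the fit with the replicate block drew its group difference from those libraries alone. Same-numbered libraries deviated from their group means with correlations of -0.514 and -0.103, so the numbers were not taken to pair them. Scaling alternatives moved the median of all genes by less than 0.1 on the log2 scale. Of the 8 genes, Nr1h3 had the fewest reads, with 81 in its lowest library.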
